A study of Mus musculus with 3 samples.

Results

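The prolactin family cluster of mouse chromosome 13 and the Psg and Ceacam cluster of chromosome 7 were examined for 5-methylcytosine in adult frontal cortex. A member is a tiled region, defined as at least 3 array probes in a row with no more than 500 bp between successive starts on mouse build mm9. Regions with a midpoint in chr13:27000000-28200000 formed the prolactin interval, and those with a midpoint in chr7:18100000-19500000 formed the Psg and Ceacam interval. This placed 24 regions (324 probes) in the prolactin interval and 30 regions (358 probes) in the Psg and Ceacam interval, 54 in all of 28880 on the array. The rule uses positions and no measured value, though the intervals were picked with earlier results of these data known.

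The study hybridised 3 two-colour arrays of 1 group, naive C57BL/6 males aged 2 months, with no second genotype, treatment or age. Each array carried the frontal cortex DNA of 1 pool of 3 mice. From each pool, 2 µg of sonicated DNA was precipitated with 10 µg of an antibody against 5-methylcytosine and 50 µl of protein G. The bound DNA (Cy5) and the input DNA (Cy3) were both amplified over the whole genome before labelling, in the same dye orientation on every array, so a dye effect and enrichment cannot be told apart. The tissue is a mixture of neurons, glia and vascular cells, and pooling hides differences between mice. The array reports DNA and no gene expression, so the tissue label was not tested against marker genes.

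Prolactin is a pituitary hormone of lactation, and the rodent relatives that surround its gene are hormones made mainly by trophoblast cells of the placenta. Pregnancy-specific glycoproteins (Psg) are secreted immunoglobulin-like proteins of the same placental cells, and the related Ceacam genes encode mostly cell-surface adhesion proteins. These genes are known mainly for roles outside the adult cortex, and their expression there was not measured. The antibody captures a fragment more readily the more methylated cytosines it holds, which in mammals lie mostly at CpG dinucleotides, so a value depends on CpG content as well as on methylation.

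In RefSeq's annotation of mouse build GRCm38.p6, 23 protein-coding prolactin family genes followed each other from Prl to Prl5a1 with no other protein-coding gene between them. Hdgfl1 preceded them and Sox4 and Cdkal1 came next. On chromosome 7, 13 Psg and 6 Ceacam genes formed a run from Psg16 to Psg17 that also held Gm5155, Igfl3 and Mill1, with Hif3a before it and Mill2 and Pglyrp1 after it. The array gives probes by mm9 position with no gene names, and coordinates were not carried between builds. Which tiled region belongs to which gene was therefore not determined, and the flanks of the Psg and Ceacam interval may hold members of the same families.

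Promoters of both families were poor in CpG. RefSeq promoter sequences of 300 bases, which end shortly after the gene start, were matched for 20 of the 23 genes of the prolactin run and for 15 of the 19 of the Psg and Ceacam run. Each of these 35 promoters held at most 5 CpGs, with a median of 2.5 in the prolactin run and 2 in the Psg and Ceacam run. Among 17486 promoters of protein-coding genes the median was 13, and 33.5% held at most 5. The motif TATAAA, on either strand, was present in 5 of the 20 prolactin promoters, in 2 of 5 Ceacam promoters and in none of 10 Psg promoters, against 13.3% of protein-coding promoters. A match is a description of these letters and not a binding site, and no match says only that the letters are not in this window.

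The sequences below show how few CpGs, written in capitals, such promoters offer to the antibody. They are those of Prl (pituitary prolactin), Prl3d1 (a placental lactogen), Prl2b1 (the most CpGs in its run, at 5), Psg17 (3 CpGs), Psg20 (no CpG) and Ceacam11 (4 CpGs), given 5′ to 3′ on the gene's strand. On GRCm38.p6 they lie at chr13:27057320-27057619 (plus strand), chr13:27093939-27094238 (plus strand), chr13:27390797-27391096 (minus strand), chr7:18821542-18821841 (minus strand), chr7:18685943-18686242 (minus strand) and chr7:17971917-17972216 (plus strand), and these positions must not be read against the mm9 positions of the tiled regions.
Prl: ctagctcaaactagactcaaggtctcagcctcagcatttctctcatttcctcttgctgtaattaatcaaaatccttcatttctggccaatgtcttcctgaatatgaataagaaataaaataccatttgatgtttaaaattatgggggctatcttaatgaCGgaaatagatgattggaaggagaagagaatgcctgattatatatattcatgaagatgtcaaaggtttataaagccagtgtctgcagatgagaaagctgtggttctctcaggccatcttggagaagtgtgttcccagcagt
Prl3d1: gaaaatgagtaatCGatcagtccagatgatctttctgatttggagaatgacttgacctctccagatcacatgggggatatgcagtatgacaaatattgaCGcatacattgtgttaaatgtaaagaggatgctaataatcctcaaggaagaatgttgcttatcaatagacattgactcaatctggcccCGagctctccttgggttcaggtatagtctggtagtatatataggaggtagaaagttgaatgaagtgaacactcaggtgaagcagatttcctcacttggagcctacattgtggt
Prl2b1: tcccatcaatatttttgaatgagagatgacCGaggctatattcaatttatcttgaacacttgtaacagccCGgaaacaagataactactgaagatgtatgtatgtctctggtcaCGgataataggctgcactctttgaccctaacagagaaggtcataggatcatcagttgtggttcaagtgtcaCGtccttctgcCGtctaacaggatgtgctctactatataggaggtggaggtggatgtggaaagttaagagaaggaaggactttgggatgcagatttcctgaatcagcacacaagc
Psg17: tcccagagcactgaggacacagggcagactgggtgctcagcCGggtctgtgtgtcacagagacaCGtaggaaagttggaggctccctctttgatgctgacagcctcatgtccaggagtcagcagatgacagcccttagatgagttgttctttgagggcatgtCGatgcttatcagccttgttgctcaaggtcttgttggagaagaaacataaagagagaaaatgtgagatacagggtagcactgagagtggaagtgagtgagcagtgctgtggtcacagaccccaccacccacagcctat
Psg20: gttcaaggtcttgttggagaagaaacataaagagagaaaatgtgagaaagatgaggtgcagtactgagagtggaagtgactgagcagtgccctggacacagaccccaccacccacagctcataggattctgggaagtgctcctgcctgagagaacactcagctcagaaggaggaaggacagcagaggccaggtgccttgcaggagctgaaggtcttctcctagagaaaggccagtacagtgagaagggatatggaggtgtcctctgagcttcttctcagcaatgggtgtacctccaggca
Ceacam11: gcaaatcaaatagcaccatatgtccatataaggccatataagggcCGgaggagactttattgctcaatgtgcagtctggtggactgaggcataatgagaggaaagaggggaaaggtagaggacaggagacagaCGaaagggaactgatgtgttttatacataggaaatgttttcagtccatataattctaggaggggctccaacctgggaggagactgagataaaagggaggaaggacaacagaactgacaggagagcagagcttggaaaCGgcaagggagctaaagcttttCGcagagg

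All values that follow are log2 of bound over input signal minus the median of the array's probes, so 0 is the median probe and not an unmethylated reference. Errors are SDs over the 3 arrays. A region was called higher or lower where limma's fit of all 28880 regions against 0 gave a Benjamini-Hochberg adjusted p under 0.05. If arrays shared a DNA pool, which the sample descriptions do not exclude because they give every array the same replicate number, the SDs and p-values measure only the spread between arrays. A difference between sets of regions was computed on each array, and its sign was flipped in every combination of arrays for an exact permutation test (two-sided). With 3 arrays the smallest p this test can give is 0.25, so no such difference could pass 0.05. There were 29 such differences of the intervals, and their Benjamini-Hochberg adjusted p was 0.279 where p was 0.25.

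The Psg and Ceacam interval was less enriched for 5-methylcytosine than the sequence on both of its sides. The mean over its 30 regions was -0.53, -0.41 and -0.30 on the 3 arrays (-0.41 ± 0.11), against 0.08, -0.03 and -0.05 for the 94 regions within 1 Mb on either side (0.00 ± 0.07). The interval was below its flanks on every array. The difference was -0.61, -0.38 and -0.26 per array (-0.42 ± 0.18, exact permutation p = 0.25, the smallest possible). It was -0.43 ± 0.15 against the 25 regions before the interval and -0.41 ± 0.19 against the 69 after it. Against 27621 other autosomal regions it was -0.36 ± 0.13, again below on every array (exact permutation p = 0.25). The size depended on background correction, and was -0.11 from the flanks after normexp and -0.16 after loess.

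Within the Psg and Ceacam interval, 20 of 30 regions were lower and 3 higher than the median probe, where 38.1% of all tested regions were lower and 28.0% higher. The median region was at -0.66, against -0.11 over all tested regions. After loess 14 of the 30 were lower (31.0% of all regions), and after normexp 18 (36.4% of all regions). With the mode of each array as 0, 27 of the 30 were lower and 1 higher, where 73.4% and 9.94% of all regions were. In the flanks, 35 of 94 were lower and 34 higher. Of the 30 regions, 22 were below 0 on all arrays and 3 above 0 on all, where 13091 and 9823 of all 28880 regions were. The order of the regions was shared by the arrays, with Pearson's r of 0.88 to 0.93 between arrays across regions, which lie in the same libraries and are not independent.

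**Figure D1:**
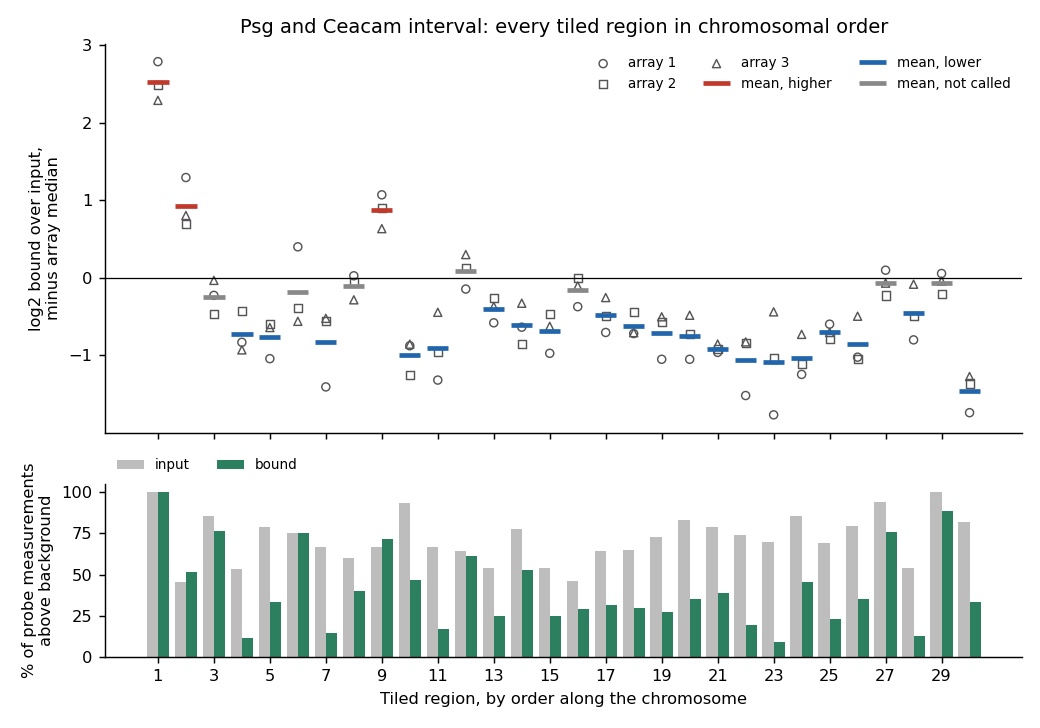
Values of the 30 tiled regions of the Psg and Ceacam interval in chromosomal order, as log2 bound over input minus the array median, with 1 symbol per array and a bar at the mean (red higher, blue lower, grey not called). The lower panel gives the share of each region's probe measurements above background in the input and bound channels. The 3 higher regions all lie among the first 9, and 11 of the last 13 regions are lower.

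The 3 higher regions lay in the first part of the interval. The first region, chr7:18195827-18196258, was the most enriched member of either cluster, at 2.79, 2.49 and 2.29 on the arrays (2.52 ± 0.25, 5.73-fold over the median probe, limma adjusted p = 5.45e-08). All 15 of its probe measurements were above background in both channels, so this value is no bound, but its size depended on the processing and was 1.77 after normexp and 1.51 after loess. It was the only member of either cluster that was higher by at least 2-fold, where 8.84% of all regions were called and at least 2-fold higher. The next region, chr7:18202814-18203699, stood at 1.29, 0.69 and 0.80 (0.93 ± 0.32), with 17 of 33 bound measurements above background. The third, chr7:18557242-18557688, stood at 1.07, 0.90 and 0.63 (0.87 ± 0.22), with 15 of 21. All 3 were above 0 on every array.

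The lowest regions lay towards the other end. The last region, chr7:19495547-19496402, gave -1.74, -1.36 and -1.27 (-1.46 ± 0.25, 2.75-fold below the median probe, limma adjusted p = 1.89e-06). Its input was above background in 27 of 33 probe measurements and its bound DNA in 11 of 33, so the ratio rests partly on bound signals near background. The regions chr7:19241877-19243256 (-1.08 ± 0.66), chr7:19201654-19203046 (-1.06 ± 0.39) and chr7:19271186-19272545 (-1.03 ± 0.27) were also lower by at least 2-fold, and all 4 were below 0 on every array. After normexp the 4 lay between -0.47 and -0.23, and after loess between -1.18 and -0.57, where chr7:19495547-19496402 alone stayed at least 2-fold lower. Among all regions 8.12% were called and at least 2-fold lower. The fifth lowest, chr7:18594021-18594444, stood at -0.88, -1.25 and -0.86 (-0.99 ± 0.22).

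Between chr7:18940137 and chr7:19385079, 10 consecutive regions were all lower. The run was broken by background correction, since its first region was not called after normexp (limma adjusted p = 0.0885) or loess (-0.01, limma adjusted p = 0.959) and chr7:19069304-19070688 just missed after loess (limma adjusted p = 0.0502). This stretch of 445 kb held values from -1.08 to -0.48 with a mean of -0.82. Its input DNA was above background in 351 of 471 probe measurements (74.5%) and its bound DNA in 143 (30.4%). The stretch ended at chr7:19406844-19407788, which was near the median probe (-0.07 ± 0.16) and had bound DNA above background in 25 of 33 measurements. By position, the mean was -0.04 ± 0.02 over the 11 regions of chr7:18100000-18600000, -0.37 ± 0.17 over the 6 of chr7:18600000-19000000 and -0.75 ± 0.20 over the 13 of chr7:19000000-19500000. These sections were chosen after the values were seen and were not tested.

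The interval's ends did not mark a step in single regions. The last region before it, chr7:18046822-18047869, stood at 0.83 and its first member at 2.52, both higher. Its last member stood at -1.46 and the first region after it, chr7:19509520-19510119, at -0.85, both lower. In windows of 1 Mb compared with their neighbouring windows by limma, neither the window from 18 to 19 Mb (0.08 ± 0.05, adjusted p = 0.156) nor that from 19 to 20 Mb (-0.10 ± 0.02, adjusted p = 0.0783) was called, where 33.6% of 1614 windows were lower. Each of these windows held part of the interval and regions outside it, and each was a neighbour of the other. Neither contrast therefore set the interval alone against its surroundings. When windows were shifted by 0.5 Mb, the window chr7:18500000-19500000 was lower than its neighbours, with differences of -0.79, -0.51 and -0.35 (-0.55 ± 0.22, limma adjusted p = 1.5e-05), the 58th lowest of 1601, of which 34.8% were lower. The other shifted window over the interval, chr7:17500000-18500000, was not called (0.01 ± 0.09, limma adjusted p = 0.874). The shifted windows were likewise neighbours of each other, so each had members of the interval among its neighbours. With window means set against 0, a test added after the values were seen, the window from 19 to 20 Mb was lower (-0.26 ± 0.02, limma adjusted p = 0.000431), where 41.2% of 1683 windows were, and that from 18 to 19 Mb was not called (-0.10 ± 0.04, limma adjusted p = 0.059).

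Signals over background differed between the Psg and Ceacam interval and its flanks, and this moved with the ratio. Bound DNA was above background at 50.3%, 26.0% and 34.9% of the interval's probes on the 3 arrays (37.1% ± 12.3), against 68.5% ± 9.35 in the flanks, a difference of -31.5 ± 3.1 percentage points. Input DNA was above background at 71.0% ± 13.5 against 86.4% ± 3.93. Probes averaged 52.7 nt in the interval, 49.0 nt in the flanks and 52.2 nt over other autosomal regions. Where both channels were above background on all arrays, the mean was -0.01 ± 0.06 for 81 probes of the interval and 0.44 ± 0.11 for 673 of the flanks, a difference of -0.45 ± 0.10 that was negative on every array (exact permutation p = 0.25). This choice of probes uses the bound signal itself, which enters the ratio, and it kept 22.6% of the interval's probes and 56.3% of those in the flanks. A further 51 probes (14.2%, against 6.86% in the flanks) had input above background on all arrays and bound DNA on none, and at the median of these probes the ratio of bound over input was at least 1.29-fold below that of the array's median probe.

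**Figure D2:**
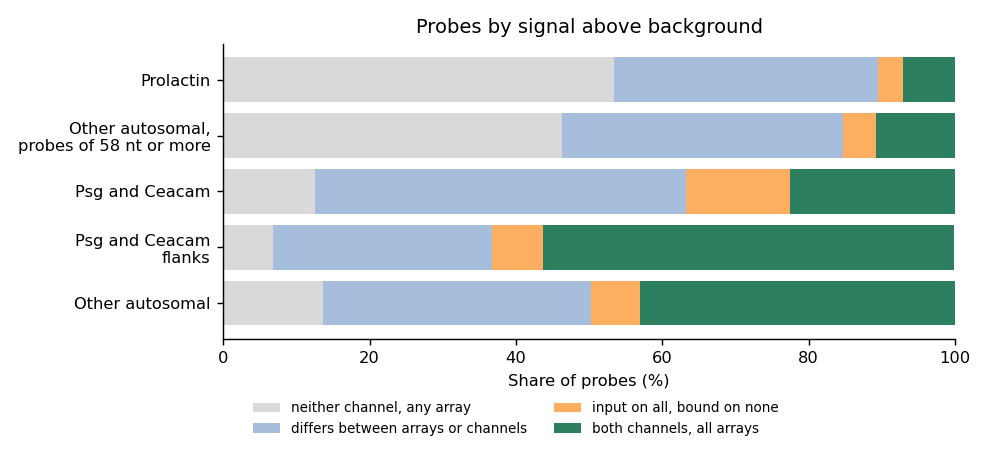
Share of probes, in percent, by whether their signal was well above background on all 3 arrays, for both intervals, the Psg and Ceacam flanks, all other autosomal regions and those of other autosomal regions with a mean probe length of at least 58 nt. In the prolactin interval 53.4% of probes were above background in neither channel on any array, against 12.6% in the Psg and Ceacam interval and 13.7% in other autosomal regions.

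The prolactin interval showed another pattern, with values near the median probe and little signal. Its 24 regions averaged -0.30, 0.03 and -0.07 on the arrays (-0.11 ± 0.17), with a median region of -0.08 and a range from -0.53 to 0.29. The arrays did not share a sign. Against other autosomal regions the difference was -0.25, 0.07 and 0.01 (-0.06 ± 0.17, exact permutation p = 1). Only 4 regions lay within 1 Mb on either side, which averaged -0.20 ± 0.04, and the difference from them was -0.05, 0.23 and 0.09 (0.09 ± 0.14, exact permutation p = 0.5). It was -0.57 ± 0.32 against the 1 region before and 0.31 ± 0.10 against the 3 after, so the flanks gave no common direction. With only probes whose input was above background, the interval was below its flanks by an average difference of -0.54. This average depended on the 1 region before, which stood at 1.07 under this filter. The 3 after stood at -0.91, -0.45 and -1.19, around the interval's mean of -0.91. The standard windows of 1 Mb could not be compared with their neighbours, which held fewer than 5 regions. In windows shifted by 0.5 Mb, neither chr13:26500000-27500000 (0.06 ± 0.16, limma adjusted p = 0.404) nor chr13:27500000-28500000 (0.05 ± 0.12, limma adjusted p = 0.416) was called. Each of these windows held part of the interval and was a neighbour of the other. The test thus compared the interval largely with itself and cannot set it against its surroundings. Set against 0, the window from 27 to 28 Mb was not called either (-0.13 ± 0.18, limma adjusted p = 0.104).

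In the prolactin interval 4 of 24 regions were lower and none higher by limma, against the same 38.1% and 28.0% of all regions, and none reached 2-fold. Of other autosomal regions with probes of at least 58 nt on average, like the interval's (long-probe regions), 26.0% were lower and 16.3% higher. At an unadjusted p under 0.05 the limma fit gave 5 lower and 2 higher in the interval. These calls depended on where 0 was set and on which signal values were used. With each array's mode in place of its median, all 24 prolactin regions were lower, as were 73.4% of all regions. In the authors' deposited series matrix, centred on the median, 23 were lower and 1 higher, where 38.9% of all regions were lower and 30.4% higher. Among the long-probe regions, 77.3% were lower and 3.95% higher in that matrix. Over all probes, 6 prolactin regions were below 0 on every array and 3 above 0 on every array, where 13091 and 9823 of all 28880 regions were. A common sign was thus found for 37.5% of prolactin regions, 83.3% of Psg and Ceacam regions and 79.3% of all regions. Between arrays the regions of the interval correlated with r of 0.59, 0.30 and 0.05, which describes regions of the same libraries. For the long-probe regions r was 0.73, 0.68 and 0.76. The SD over regions was 0.22 in the prolactin interval, 0.77 in the Psg and Ceacam interval and 0.45 in the long-probe regions. It was 0.49 ± 0.09 smaller in the prolactin than in the Psg and Ceacam interval, and smaller on every array (exact permutation p = 0.25).

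**Figure D3:**
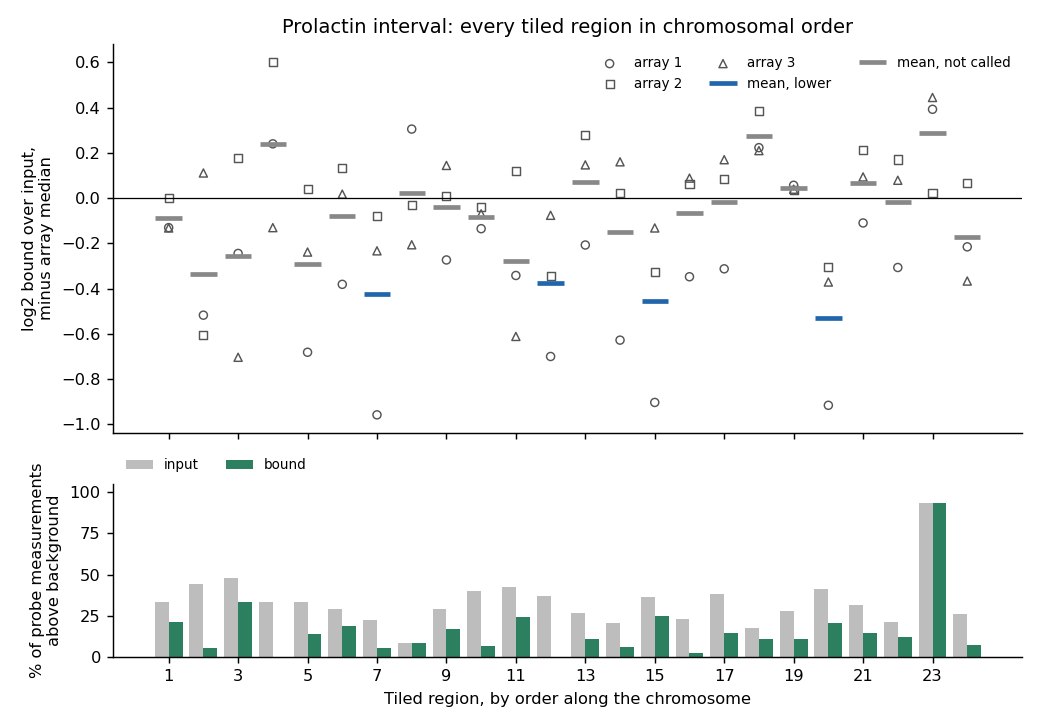
Values of the 24 tiled regions of the prolactin interval in chromosomal order, as log2 bound over input minus the array median, with 1 symbol per array and a bar at the mean (blue lower, grey not called). The lower panel gives the share of probe measurements above background; a single region, the 23rd, had most of its bound measurements above background (14 of 15).

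The lower regions of the prolactin interval were small in size and low mostly through array 1. The lowest, chr13:27872471-27873900, stood at -0.92, -0.31 and -0.37 (-0.53 ± 0.34, limma adjusted p = 0.00517). The region chr13:27673833-27674831 stood at -0.90, -0.33 and -0.13 (-0.45 ± 0.40, limma adjusted p = 0.0176). The region chr13:27350136-27350682 stood at -0.96, -0.08 and -0.23 (-0.42 ± 0.47, limma adjusted p = 0.0339), and chr13:27530263-27530951 at -0.70, -0.35 and -0.08 (-0.37 ± 0.31, limma adjusted p = 0.0295). In each of the 4, array 1 gave the lowest value. Array 1 was also the lowest for the long-probe regions, which averaged -0.26, 0.04 and -0.03 on the arrays. Without array 1, 1 region of the interval was called lower. No share of all regions is given for that fit, so this count cannot be read as a result about the interval. The fifth lowest, chr13:27185588-27186088, stood at -0.52, -0.60 and 0.11 and was not called.

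No region at the upper end of the prolactin interval passed the test. The highest, chr13:28047944-28048224, stood at 0.39, 0.02 and 0.45 (0.29 ± 0.23). It differed from its neighbours in signal, with bound DNA above background in 14 of 15 measurements and a mean probe length of 47.0 nt, against at least 58 nt in each of the other prolactin regions. The region chr13:27759748-27761054 stood at 0.22, 0.38 and 0.21 (0.27 ± 0.10), with bound DNA above background in 5 of 45 measurements. The regions chr13:27248177-27248537 (0.24 ± 0.37), chr13:27604890-27606066 (0.07 ± 0.25) and chr13:27892318-27893745 (0.07 ± 0.16) followed. The first member, chr13:27148243-27149651, stood at -0.09 and the last, chr13:28106998-28108251, at -0.17. The nearest regions outside were chr13:26861829-26863175 before it (0.46) and chr13:28233262-28234559 after it (-0.32).

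Most prolactin probes gave no signal above background. Input DNA was above background at 44.1%, 24.7% and 24.7% of the 324 probes (31.2% ± 11.2) and bound DNA at 25.3%, 9.57% and 9.26% (14.7% ± 9.18), with array 1 the brightest. Other autosomal probes were above background at 74.6% ± 8.05 in the input and 55.5% ± 9.87 in the bound channel, so the prolactin interval was lower by 43.5 ± 3.18 and 40.8 ± 2.07 percentage points and on every array. In 23 of its 24 regions bound DNA was above background in under 50% of measurements, as in 21 of 30 Psg and Ceacam regions and 39.0% of other autosomal regions. The 173 probes (53.4%) above background in neither channel on any array averaged 0.35 ± 0.21, and the like probes of other autosomal regions averaged 0.35 ± 0.14. Signals there are near background in both channels, so those values carry no order, and they entered the mean of the interval.

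Where the prolactin probes did give signal, they were low. The 23 probes above background in both channels on all arrays, spread over 13 regions, averaged -0.71, -0.56 and -0.44 (-0.57 ± 0.13). The like probes of other autosomal regions averaged 0.38 ± 0.13, a difference of -0.95 ± 0.26 that was negative on every array (exact permutation p = 0.25). In the other autosomal regions of long probes, of at least 58 nt on average, 3957 such probes averaged 0.08 ± 0.14. The difference from these was not tested. Against the like probes of the Psg and Ceacam interval the difference was -0.56 ± 0.18, and against those of its own flanks -0.74 ± 0.27, also negative on every array (exact permutation p = 0.25 for each). The flanks held few such probes, 5 in the 1 region before the interval, at 1.37 ± 0.31, and 14 in the regions after it, at -0.26 ± 0.08. The bound signal enters both this choice of probes and the ratio. So among all probes the prolactin interval was above the Psg and Ceacam interval, by 0.30 ± 0.12, and among bright probes it was below it.

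Keeping only probes with input above background on all arrays left 14 prolactin regions with at least 3 probes. Such a filter keeps probes by their input and so favours low ratios, and it is read only against other regions filtered alike. The 14 regions averaged -0.86, -0.93 and -0.94 (-0.91 ± 0.04), and 11 were lower and 1 higher, where 47.9% of all 26323 filtered regions were lower and 29.0% higher. Among filtered autosomal regions of long probes, of at least 58 nt on average, 70.4% were lower and 12.8% higher. The single higher region was chr13:28047944-28048224 at 0.32. The lowest were chr13:27872471-27873900 (-1.73 ± 0.12), chr13:27673833-27674831 (-1.62 ± 0.40) and chr13:27287342-27288705 (-1.53 ± 0.85), of which the first and second were also the lowest over all probes. Over the same filter the Psg and Ceacam interval averaged -0.65 ± 0.09 and its flanks -0.02 ± 0.10. The difference of the prolactin interval from other autosomal regions was then -0.73 ± 0.06.

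Probe length moved with this signal. Prolactin probes averaged 58.8 nt, and 82.1% of them had the maximum length of 60 nt, against 30.8% of other autosomal probes. The 3119 other autosomal regions with a mean probe length of at least 58 nt resembled the interval in brightness, with input above background at 36.6% ± 13.5 and bound DNA at 19% ± 9.54 of probes. Over all probes they averaged -0.08 ± 0.15, and the prolactin interval differed from them by -0.03 ± 0.02. With the input filter they averaged -0.70 ± 0.11 over 1636 regions, and the prolactin regions were below them by -0.28, -0.20 and -0.16 (-0.21 ± 0.06, exact permutation p = 0.25). The long-probe regions were thus also low under this filter. This comparison was chosen after the values were seen.

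**Figure D4:**
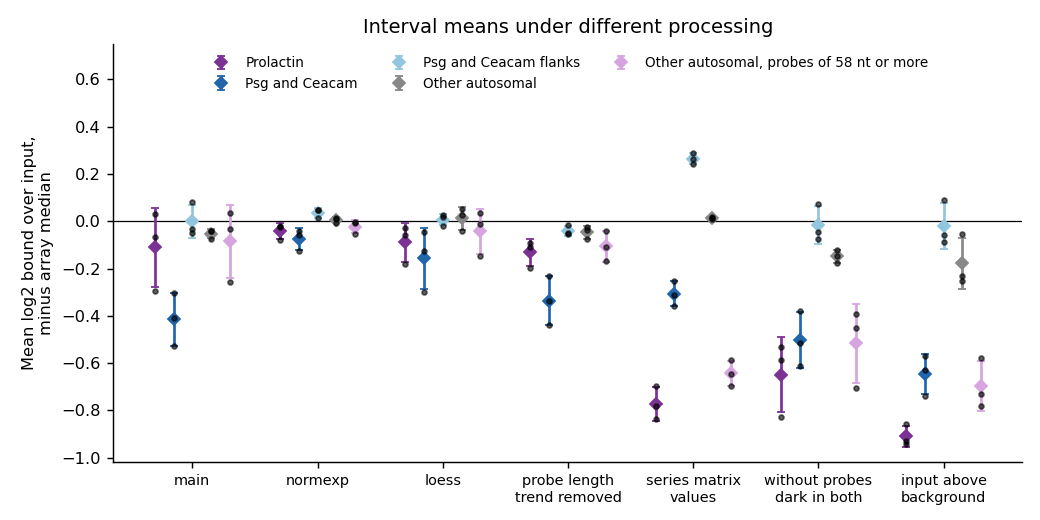
Mean log2 bound over input, minus the array median, over the regions of each interval under 7 ways of processing (diamonds, mean over arrays; bars, SD; black dots, the 3 arrays). The Psg and Ceacam interval lies below its flanks in every one, whereas the prolactin interval lies near 0 with all probes and below the Psg and Ceacam interval where dim probes are left out or in the series matrix values.

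Within single regions the middle and the edges were compared in regions of 1000 to 1800 bp with at least 8 probes. Across other autosomal regions the centre, within 200 bp of the midpoint, was below the edges, more than 500 bp away, by 0.30 ± 0.08. In 16 Psg and Ceacam regions the centre stood at -0.77 ± 0.27 and the edges at -0.62 ± 0.16, with a difference of -0.28, -0.08 and -0.08 (-0.15 ± 0.11). In 14 prolactin regions it was -0.17, 0.25 and 0.14 (0.08 ± 0.22), with no common sign. As 53.4% of that interval's probes were above background in neither channel, its contrast rests partly on signals near background. It was not compared with that of other regions of long probes. The contrast lay above that of other autosomal regions by 0.15 ± 0.04 in the Psg and Ceacam interval and by 0.37 ± 0.15 in the prolactin interval, on every array (exact permutation p = 0.25 for each). Against its own flanks the Psg and Ceacam difference was 0.21 ± 0.04. With only probes whose input was above background, the Psg and Ceacam contrast turned to 0.11 ± 0.05 over 10 regions. In the series matrix values the prolactin contrast turned to -0.13 ± 0.29 over 13 regions.

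**Figure D5:**
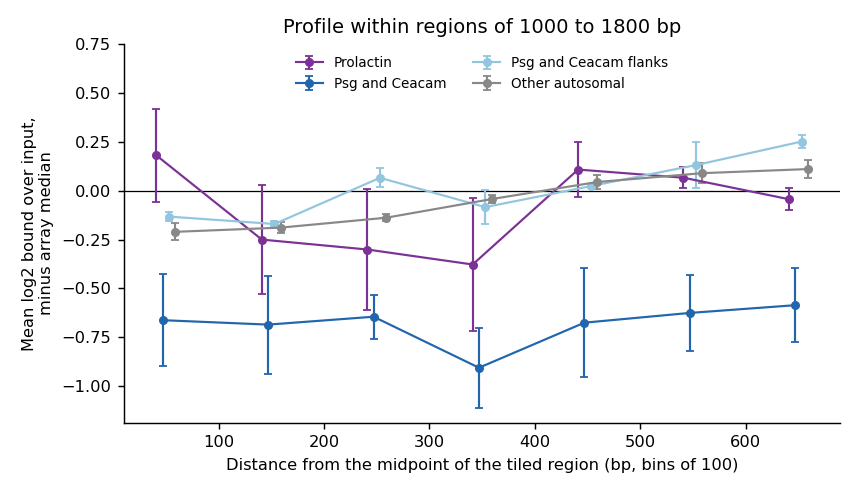
Mean log2 bound over input, minus the array median, by distance of a probe from the midpoint of its tiled region, in bins of 100 bp, for regions of 1000 to 1800 bp; bars are SDs over the 3 arrays. Other autosomal regions climb from -0.21 in the first bin to 0.11 in the last, while the Psg and Ceacam interval stays between -0.91 and -0.59 throughout.

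In single regions, 3 of 16 Psg and Ceacam regions had a lower centre and none a higher one by limma (1 at an unadjusted p under 0.05), where 33.4% of 18328 regions tested were lower and 14.7% higher. They were chr7:19302250-19303616 (-1.01 ± 0.32, limma adjusted p = 0.00554), chr7:19152446-19153832 (-0.95 ± 0.44, limma adjusted p = 0.00977) and chr7:18297473-18298806 (-0.75 ± 0.38, limma adjusted p = 0.0272). In the prolactin interval 1 of 14 was lower and 1 higher. The centre of chr13:27436498-27437745 was below its edges by 1.26, 1.19 and 1.11 (a difference of -1.19 ± 0.08, limma adjusted p = 0.00164). That of chr13:27892318-27893745 was above them by 0.72, 1.18 and 1.93 (1.28 ± 0.61, limma adjusted p = 0.00257). Bound DNA was above background in 2 of 30 and 7 of 48 measurements of these 2 regions, so their contrasts rest on signals near background.

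The clusters also differed from their surroundings in how densely they were tiled. The prolactin interval held 20 regions per Mb and its flanks 2 per Mb, while the Psg and Ceacam interval held 21.4 per Mb and its flanks 47 per Mb. The median gap between neighbouring regions was 38.8 kb in the prolactin and 39.7 kb in the Psg and Ceacam interval. The tiles covered 28.0 kb (2.33%) and 30.8 kb (2.2%) of the 2 intervals, so the values describe these sites and not the sequence between them. Both families arose by gene duplication and some of their members are close in sequence, and whether a probe also binds a related copy was not tested.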

How the data were processed

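Methylated DNA immunoprecipitation was read on 3 arrays of 1 group. Per the file headers, the deposited intensities come from Agilent Feature Extraction 10.7.3.1 on probes placed on mm9, are background-subtracted, spatially detrended and scaled by a linear dye factor, with surrogate values in place of signals near background. Also per the file headers, the log10 ratio column is bound over input. The authors' deposited series matrix holds log2 values that tracked the log ratio of background-subtracted spot medians, bound over input (r of 0.999 or more per array), with column medians of -0.97, so its direction was bound over input. Its normalisation method is unstated in the labels.

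From these, log2 of bound over input processed intensity was taken per spot, outlier-flagged spots were left out, replicate spots were averaged, and each array was centred on its median probe, without loess or quantile steps (before centring the medians were -0.19, -0.19 and -0.09). Region values are means over probes. Each of 420288 spots per array was read, 4474 of them controls that were left out. Tests were limma 3.58.1 (R 4.3.3) against 0 over all regions, a fit checked on simulated data, and exact sign-flip permutations for differences. The number of arrays limits the precision. Because no column of mean spot signals was used, normexp (offset 50) ran on spot medians. The alternatives were normexp, loess, the series matrix, the log10 ratio, filters on dim probes, the median of probes, other region definitions, flanks and windows, the mode as zero, removal of the probe length trend and leaving out each array.

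Named regions were the 5 highest and 5 lowest of each interval, all called ones of at least 2-fold, those at the interval ends, and up to 3 called per direction for centre against edges, plus regions at the ends of a run and extremes under the input filter, which were named after their values were seen. Genes are named as families. The intervals, members and lists were chosen with earlier results of these data known.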

Additional observations from a re-analysis of the deposited data

How the results depend on the processing

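No paired analysis was possible because there was 1 group. The depth of an array is its signal over background, which limits the prolactin interval most. The causes of the changes below were not tested, except that filters on dim probes leave fewer probes.

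The prolactin interval minus its flanks (0.09) reversed with loess (-0.10), the series matrix (-0.51), the scanner's log ratio (-0.027), input above background (-0.54), both channels above background (-0.78), without probes dark in both channels (-0.32), regions of 1000 to 1800 bp (-0.046), flanks of 0.5 Mb (-0.18) and the flank before alone (-0.57). It moved to 0.44 with the median of probes and to 0.31 with the flank after alone. The Psg and Ceacam interval minus its flanks (-0.42) stayed negative in every alternative run. It moved to -0.11 with normexp, -0.16 with loess, -0.63 with input above background and -0.70 in regions of 1000 to 1800 bp. Smaller changes gave -0.29 with the probe length trend removed, -0.30 with flanks of 0.5 Mb and -0.28 with flanks of 2 Mb. Minus other autosomal regions (-0.36), the Psg and Ceacam interval moved to -0.082 with normexp and -0.17 with loess. With at least 8 probes it moved to -0.50, and in regions of 1000 to 1800 bp to -0.63.

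The prolactin minus the Psg and Ceacam interval (0.30) reversed with the series matrix (-0.47), input above background (-0.26), both channels above background (-0.60) and without probes dark in both (-0.15). It moved to 0.034 with normexp, 0.069 with loess, 0.17 with the log ratio, 0.49 with the median of probes, 0.46 with at least 8 probes, 0.58 in regions of 1000 to 1800 bp and 0.43 as a mean over probes. Minus other autosomal regions (-0.06), the prolactin interval moved to -0.79 with the series matrix, -0.73 with input above background, -0.96 with both channels above and -0.50 without dark probes. It reversed to 0.13 with the median of probes, and leaving out each array in turn gave -0.12 to 0.040, reversing without array 1.

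Counts of prolactin regions called lower (4) were 23 with the series matrix, 10 with the log ratio, 11 of 14 with input above background, 1 of 2 with both channels above, 15 of 21 without dark probes (where 45.6% of all regions and 62.5% of those of long probes were lower), 0 with the median of probes, 1 of 14 in regions of 1000 to 1800 bp and 24 with the mode as 0, and 1 to 6 with an array left out. Those called higher (0) were 1 with the series matrix, with either filter on background, with at least 8 probes and with the probe length trend removed, 3 with the median of probes, and 0 to 1 with an array left out. Psg and Ceacam regions called higher (3) were 1 with at least 8 probes or the mode as 0, and 0 in regions of 1000 to 1800 bp. Those called lower (20) were 7 of 14 with both channels above. Counts without a share of all regions, in this paragraph or above, cannot be read as a result about the intervals. That share depended on the setting, and was 31.0% lower with loess and 73.4% lower with the mode as 0. The windows of 1 Mb over that interval called lower were 0, and 1 with the series matrix, with regions of 1000 to 1800 bp, with shifted windows or with the window mean set against 0.

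Centre minus edges in the prolactin interval (0.08) reversed with the series matrix (-0.13) and without dark probes (-0.69 ± 1.09, from 1 region), and ranged from -0.013 to 0.20 with an array left out, reversing without array 2. In the Psg and Ceacam interval (-0.15) it reversed to 0.11 with input above background (10 regions) and moved to -0.64 ± 0.51 with both channels above, from 1 region. Single prolactin regions reversed as follows. The region chr13:27248177-27248537 gave -1.23 with the series matrix and -0.39 with the mode as 0, chr13:27759748-27761054 gave -0.82 and -0.36, and chr13:28047944-28048224 gave -0.34 with the mode. The region chr13:27604890-27606066 gave -0.72, -0.56 and, without dark probes, -0.48. The region chr13:27892318-27893745 gave -0.78 and -0.56, and -0.96 with either filter on dim probes. The region chr13:27350136-27350682 gave 0.026 with the median of probes. On chromosome 7, chr7:18602806-18603861 gave -0.54 with the mode, and chr7:19468966-19470239 gave 0.41 with the series matrix and 0.28 with both channels above.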
